A study of Mus musculus with 32 samples.

Results

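The genes described here are 40 interferon-stimulated genes of the mouse, taken by symbol from the 24475 genes listed in 2 RNA tables. Guanylate-binding proteins are not among them. All 40 symbols were found in both tables, and the intervals that the authors' peak annotation assigned to these genes were added from 8 ChIP-seq peak lists. The members were sorted by role into 9 groups: the IFIT and OAS families, nucleic acid sensors, the ISG15 system, the PARP family, the Mx and IRG GTPases, nucleotide and nuclease effectors, and a last group of membrane, nuclear body and other products.

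Both cell lines of the study are from the mouse. One, Scid.adh.2c2, resembles pro-T cells, the stage at which thymocytes commit to the T lineage. The other, ILC2/b6, stands for group 2 innate lymphoid cells (ILC2), which make type 2 cytokines without an antigen receptor, and was grown in medium holding IL-33, IL-7 and IL-2, each at 10 ng/ml. For RNA-seq, cells of either line had been transduced with a CFP vector carrying a control guide (sgControl-CFP) or a guide against Bcl11b (sgBcl11b-CFP), with 2 libraries in each of these groups. For ChIP-seq, cells of either line were precipitated with antibodies to Bcl11b, GATA3, Runx1 or Runx3. There were 2 libraries per factor and line, and 1 peak list was made from each pair. Input libraries are titled FA or DSG, 2 of each kind per line. The titles of the ChIP libraries do not say which kind goes with which factor, so the factors may not have been prepared alike. The labels name no guide for the ChIP-seq cells, and do not say whether paired libraries came from separate cultures. Their spread, and so each p-value, may therefore be technical. No interferon or infection is named in the labels of any group.

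Interferons are secreted proteins that warn cells of infection. Type I interferons (alpha and beta) signal through the receptor chains Ifnar1 and Ifnar2 and the kinases Jak1 and Tyk2 to a complex that contains Stat2 and Irf9, which binds the interferon-stimulated response element (ISRE). Type II interferon (gamma), made by T and NK cells, signals through Jak1 and Jak2, and many of its target genes carry the gamma-activated site (GAS). The target genes include sensors of foreign RNA and DNA, enzymes that destroy RNA or block its translation, and GTPases that attack the membranes around intracellular pathogens. Bcl11b is a transcription factor with zinc fingers on which T-cell commitment and ILC2 identity depend, and GATA3, Runx1 and Runx3 are transcription factors of both cell types.

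The RNA libraries held 34.7 to 43.7 M reads (M, mega), and 3 reads on a transcript of 2 kb were worth 0.0343 to 0.0432 RPKM (reads per kilobase of transcript, scaled to depth). Bcl11b itself, the gene the guides target, was not lower in mRNA: in Scid.adh.2c2 the control libraries stood at 47.0 and 49.5 RPKM, the guide libraries at 47.1 and 46.8 RPKM. In ILC2/b6 Bcl11b stood at 6.85 and 6.33 RPKM against 7.04 and 7.24 RPKM. A guide can damage a protein while its mRNA stays, and the labels therefore cannot be checked by this gene. The T-cell genes Cd3e, Cd3d and Cd3g were high in all Scid.adh.2c2 libraries (46.0 to 174 RPKM), and Il5, Il13 and Il1rl1 were high in all ILC2/b6 libraries (306 to 4472 RPKM).

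Because the response element is what many of these genes are known to share, the bases before the start sites were read first. RefSeq (GRCm38.p6) promoters were found for 29 of the 40 members by symbol, and a window of 250 bases before to 50 bases after the start was searched on both strands. The ISRE core, GAAA followed after any 2 bases by another GAAA (or TTTC, any 2 bases and TTTC on the other strand), was in 13 of these 29 members (44.8%), against 3.99% of the 27025 genes with a RefSeq promoter. The GAS core TTCNNNGAA was in 9 of 29 (31.0%), against 9.55% of all genes. The Runx core TGTGGT was in 13.8% of members and 18.9% of all genes, and the GATA core AGATAA in 13.8% and 12.7%. Over the 7800 genes with a promoter here that were tested for expression in Scid.adh.2c2, the shares were 4.09% (ISRE), 8.36% (GAS), 15.1% (Runx) and 7.68% (GATA). Shown are the 250 bases before the start, 5′ to 3′ on the gene's strand, with ISRE and GAS core matches in capitals, for 6 members chosen with their values known: Ifit3, Oasl2 and Rsad2, which rose most among the members with a promoter here besides Ifi44, the modifier Isg15, and Bst2 and Trim25, which rose least.
Ifit3, chr19:34583279-34583528, plus strand: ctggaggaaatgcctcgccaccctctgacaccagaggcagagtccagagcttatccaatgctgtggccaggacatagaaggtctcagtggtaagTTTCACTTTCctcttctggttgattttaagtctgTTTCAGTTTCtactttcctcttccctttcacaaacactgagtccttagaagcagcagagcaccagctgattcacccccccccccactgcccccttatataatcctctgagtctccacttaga
Oasl2, chr5:114896684-114896933, plus strand: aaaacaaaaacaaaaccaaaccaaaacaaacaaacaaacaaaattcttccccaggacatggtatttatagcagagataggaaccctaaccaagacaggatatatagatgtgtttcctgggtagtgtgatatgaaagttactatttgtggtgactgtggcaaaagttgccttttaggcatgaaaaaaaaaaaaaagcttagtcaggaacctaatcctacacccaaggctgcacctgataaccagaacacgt
Rsad2, chr12:26456453-26456702, minus strand: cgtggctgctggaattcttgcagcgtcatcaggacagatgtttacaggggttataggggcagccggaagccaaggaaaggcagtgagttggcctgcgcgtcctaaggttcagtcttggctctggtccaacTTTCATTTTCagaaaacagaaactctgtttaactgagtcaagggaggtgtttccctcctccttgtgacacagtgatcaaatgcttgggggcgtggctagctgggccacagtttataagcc
Isg15, chr4:156200819-156201068, minus strand: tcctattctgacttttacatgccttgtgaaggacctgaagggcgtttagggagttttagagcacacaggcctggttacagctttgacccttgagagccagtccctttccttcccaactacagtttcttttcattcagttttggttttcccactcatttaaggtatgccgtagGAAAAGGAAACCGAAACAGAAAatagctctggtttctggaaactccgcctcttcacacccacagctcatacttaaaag
Bst2, chr8:71537473-71537722, minus strand: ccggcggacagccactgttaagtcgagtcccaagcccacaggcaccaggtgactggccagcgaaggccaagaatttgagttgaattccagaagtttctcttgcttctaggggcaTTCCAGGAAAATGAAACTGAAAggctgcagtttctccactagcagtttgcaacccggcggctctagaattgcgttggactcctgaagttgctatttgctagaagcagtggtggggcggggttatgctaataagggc
Trim25, chr11:88999153-88999402, plus strand: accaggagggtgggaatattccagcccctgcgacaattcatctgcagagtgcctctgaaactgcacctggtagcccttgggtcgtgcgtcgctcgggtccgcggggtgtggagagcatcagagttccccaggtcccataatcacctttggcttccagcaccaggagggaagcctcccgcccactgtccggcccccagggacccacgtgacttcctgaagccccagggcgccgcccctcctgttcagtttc

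Ifit3 held 2 separate ISRE core matches, 156 to 147 and 122 to 113 bases before its start, and Rsad2 held 1. In Isg15, 3 overlapping ISRE matches ran together, and in Bst2 a GAS match ran into 2 ISRE matches. Oasl2 and Trim25 had neither match in the window, and neither had Ifi44, which is not shown and rose by 4.11, more than Rsad2 (3.95). A match is only a run of letters, and no match says only that these letters are not in this window. Among the 26 members with a promoter here that were also tested in Scid.adh.2c2, the 13 with an ISRE match had log2 fold changes from 0.92 to 4.53 with a median of 2.54. The 13 without one ranged from 0.33 to 4.23 with a median of 2.33.

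In Scid.adh.2c2, every one of the 37 members that could be tested rose with the Bcl11b guide. The rises ran from 1.26-fold (Trim25) to 36.6-fold (Ifi44) in RPKM, with a median of 5.29-fold. On the log2(RPKM + 0.5) scale used for testing, which understates the change of low genes, the median was 2.33, against 0.05 over all genes tested. A gene was tested if 2 or more of the line's 4 libraries had 1 RPKM or more, and called if its limma p, adjusted by Benjamini-Hochberg over all genes tested, was under 0.05. This line responded broadly: 57.8% of the 10221 tested genes were called (35.1% rose and 22.7% fell), while no member fell. A rise of at least 4-fold on the log2 scale was seen in 24 members and in 2.51% of all genes, and a rise of at least 2-fold in 33 members and in 6.75% of all genes. Among the 100 largest rises of the line, 10 were members. Both Bcl11b guide libraries lay above both control libraries for all 37 tested members, as for 46.5% of all tested genes. A rise in a bulk library cannot be told apart between more RNA per cell and more cells that hold the RNA. The 3 members not tested were Parp12, listed at 0 in all 4 libraries, and Cmpk2 and Samhd1, which are described below. Of the 37, 4 had a control library under 1 RPKM and needed a guide library to pass this filter: Ifit3, Oasl2, Ifi44 and Rsad2. They also had the 4 largest log2 fold changes. Oasl2 and Ifi44 were under 1 RPKM in both control libraries, so these genes had to differ to be tested. The other 33 were at 1 RPKM or more in all 4 libraries, and their median log2 fold change was 2.09.

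**Figure D1:**
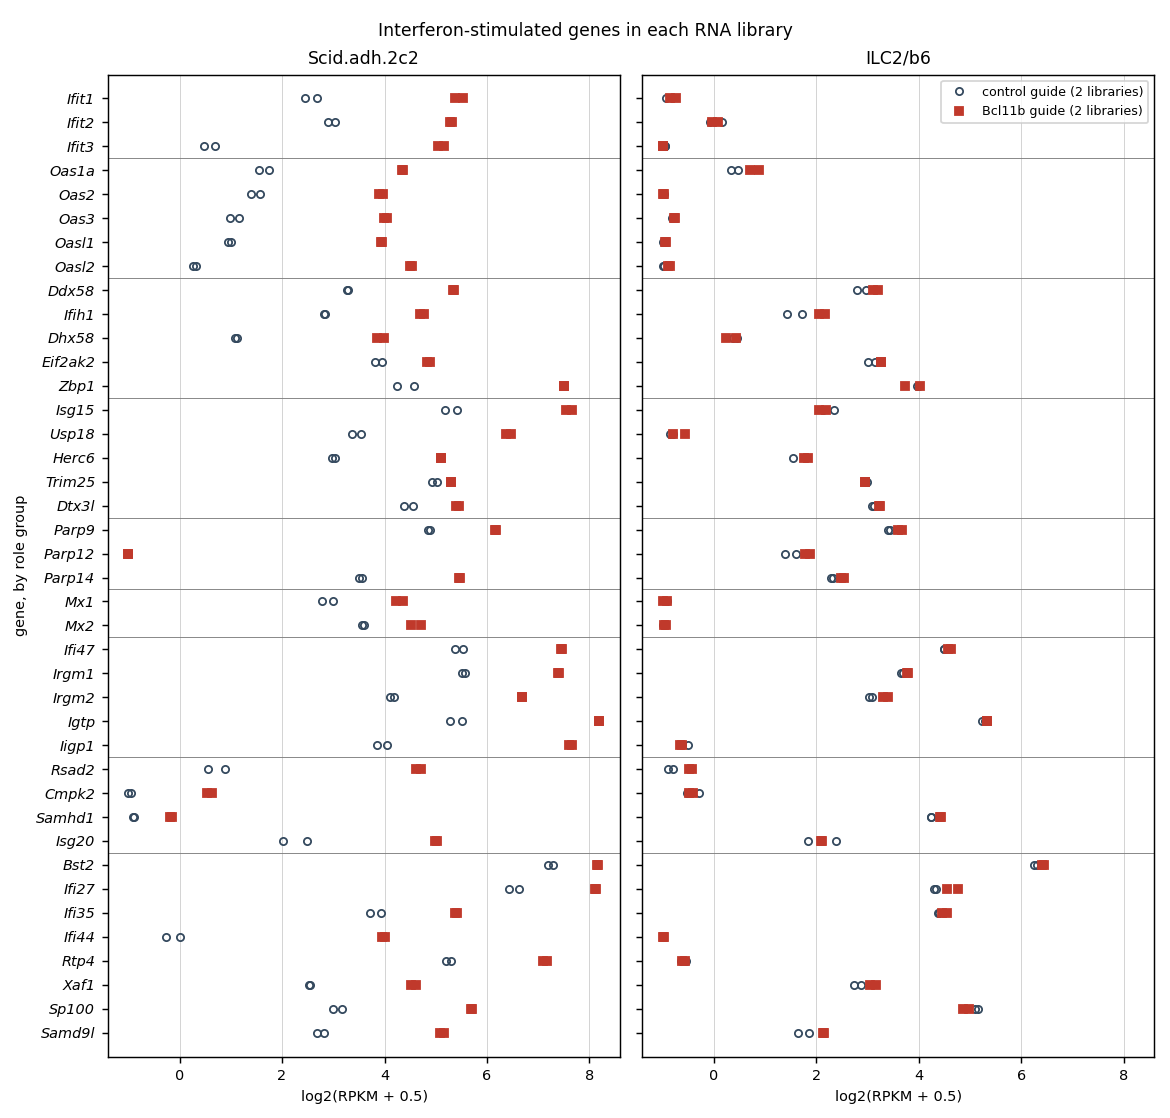
Level of each of the 40 members in every RNA library, as log2(RPKM + 0.5) on the horizontal axis, for Scid.adh.2c2 (left) and ILC2/b6 (right), with genes by role group on the vertical axis. Open circles are the 2 control guide libraries and filled squares the 2 Bcl11b guide libraries. On the left the squares lie right of the circles for 39 of 40 members, while on the right 16 members stay under 1 RPKM in all 4 libraries.

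The IFIT proteins bind foreign RNA at its 5′ end and hinder its translation, and their genes stand together on chromosome 19. Ifit3 stood at 0.883 and 1.11 RPKM under the control guide in Scid.adh.2c2 and reached 32.6 and 35.4 RPKM under the Bcl11b guide. This was the largest log2 fold change of any member (4.53 ± 0.09 SE, limma adjusted p = 8.72e-08). Ifit1 went from 4.98 and 5.89 to 41.2 and 45.7 RPKM (log2 fold change 2.89). Ifit2, the smallest change of the family, went from 6.97 and 7.66 to 39.2 and 38.3 RPKM (2.33 ± 0.06 SE). The groups were far apart for each of the 3 genes, and the 2 libraries of a group lay close together. Ifit3 has a near-identical neighbouring copy, and the sources used here do not say how reads shared by copies were counted.

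OAS enzymes are switched on by double-stranded RNA and make the 2′-5′ oligoadenylates that activate RNase L. Oasl2 went from 0.746 and 0.691 RPKM to 22.1 and 22.6 RPKM, a log2 fold change of 4.23 ± 0.07 SE. Oasl1, its neighbour on chromosome 5, went from 1.51 and 1.42 to 14.7 and 14.9 RPKM (2.96). Oas3 went from 1.74 and 1.49 to 15.5 and 16.0 RPKM (2.94), and Oas1a rose by 2.71 on the log2 scale. Oas2 had the smallest change of the family, from 2.14 and 2.48 to 14.3 and 15.1 RPKM (2.44). All 5 were low with the control guide and reached similar levels with the Bcl11b guide, between 14.3 and 22.6 RPKM. Oas1a belongs to a cluster of close copies, so its reads may be shared with them.

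The sensors detect foreign nucleic acid inside the cell. Zbp1, which binds Z-form nucleic acid and can start cell death, rose most of these on the log2(RPKM + 0.5) scale, from 23.4 and 18.4 RPKM to 181 RPKM in both guide libraries (log2 fold change 3.09 ± 0.10 SE). Dhx58, which encodes LGP2, went from 1.61 and 1.68 to 13.9 and 15.3 RPKM (2.81). In RPKM the order was the other way, 8.86-fold for Dhx58 and 8.66-fold for Zbp1. The RNA helicases Ddx58 (RIG-I) and Ifih1 (MDA5) rose by 2.07 and 1.91. Eif2ak2, the kinase PKR that stops translation when it meets double-stranded RNA, rose least of the group. It stood at 13.5 and 14.9 RPKM and then at 28.1 and 29.2 RPKM (0.99). Of the 5, Zbp1 reached the highest level and Dhx58 the lowest.

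Isg15 is a ubiquitin-like protein that is attached to other proteins, Herc6 is the mouse ligase that attaches it, and Usp18 removes it and also damps the type I receptor. Usp18 rose from 11.2 and 9.86 to 82.0 and 87.5 RPKM, a log2 fold change of 2.95 ± 0.07 SE. Isg15 rose by 2.30 to 186 and 200.3 RPKM, and Herc6 by 2.09. Dtx3l, a ubiquitin ligase that works with Parp9, rose by 0.96. Trim25, a ubiquitin ligase that helps activate RIG-I, had the smallest rise of all tested members. Its control libraries stood at 29.8 and 32.0 RPKM and its guide libraries both at 39.0 RPKM (0.33 ± 0.05 SE, limma adjusted p = 0.000892). The group thus ranged from 0.33 to 2.95, with the ligase genes Trim25 and Dtx3l at the lower end.

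PARP enzymes transfer ADP-ribose to proteins. Parp14 rose by 1.93 and Parp9 by 1.30, the latter from 29.1 and 28.2 to 71.9 and 70.5 RPKM. Parp9 and Dtx3l face away from each other on chromosome 16 and their annotated spans overlap by 558 bases, so reads in the overlap cannot be assigned to one of them. The Mx proteins are dynamin-like GTPases that block viral replication. Mx1 rose by 1.40, and Mx2 went from 11.2 and 11.6 to 22.5 and 25.6 RPKM (1.04 ± 0.07 SE). These families were among the less changed members, with group medians of 1.62 and 1.22.

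IRG proteins are GTPases best known for acting on the vacuoles of intracellular parasites and bacteria in response to interferon gamma. Iigp1 changed most, from 16.0 and 14.0 RPKM to 203 and 195 RPKM (log2 fold change 3.69 ± 0.07 SE). Igtp went from 45.1 and 38.3 to 292 and 291 RPKM (2.79), the highest guide level of any member. Irgm2 rose by 2.54 and Ifi47 by 2.00. Irgm1, which regulates the other family members, changed least, from 47.0 and 45.3 to 167 and 169 RPKM (1.86). Summed over the 5 genes, the family went from 171 and 155 RPKM to 940.1 and 930.1 RPKM.

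Rsad2 (viperin) makes a nucleotide that ends viral RNA chains, and rose from 0.963 and 1.35 to 24.1 and 25.7 RPKM (3.95 ± 0.12 SE). Cmpk2, a mitochondrial nucleotide kinase gene 12.8 kb from Rsad2, was under the expression filter. Its values of 0.00 to 1.05 RPKM corresponded to 0 and 2 reads in the control libraries and 124 and 134 reads in the guide libraries. With so few control reads the ratio, 125, had a 95% counting interval from 34.2 to 1036. Samhd1, which breaks down the nucleotides used for DNA synthesis, reached 0.405 RPKM at most, with 5 and 5 reads against 64 and 58. Isg20, an RNA exonuclease, went from 5.07 and 3.54 to 31.3 and 31.9 RPKM (2.76 ± 0.13 SE). All 4 of these genes were thus higher in both guide libraries, and Rsad2 and Isg20 passed the test.

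The last group holds products with varied roles. Ifi44, a protein of the antiviral response with no settled activity, had 0.505 and 0.328 RPKM with the control guide and 15.6 and 14.9 RPKM with the Bcl11b guide (4.11 ± 0.11 SE). Sp100, a nuclear body protein, rose by 2.61, Samd9l, which restrains translation during infection, by 2.37, and Xaf1, a partner of the apoptosis inhibitor XIAP, by 2.03. Rtp4, a receptor chaperone, rose by 1.89, and Ifi27 and Ifi35 by 1.59 and 1.58. The span of Ifi27 lies wholly inside that of Ifi27l2a on the other strand, and the library kit is not one stated to keep strand. Bst2 (tetherin), which holds budding virus at the cell surface, was already the highest member with the control guide. It went from 155 and 146 to 284 and 286 RPKM, the smallest change of this group (0.92 ± 0.04 SE).

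**Figure D2:**
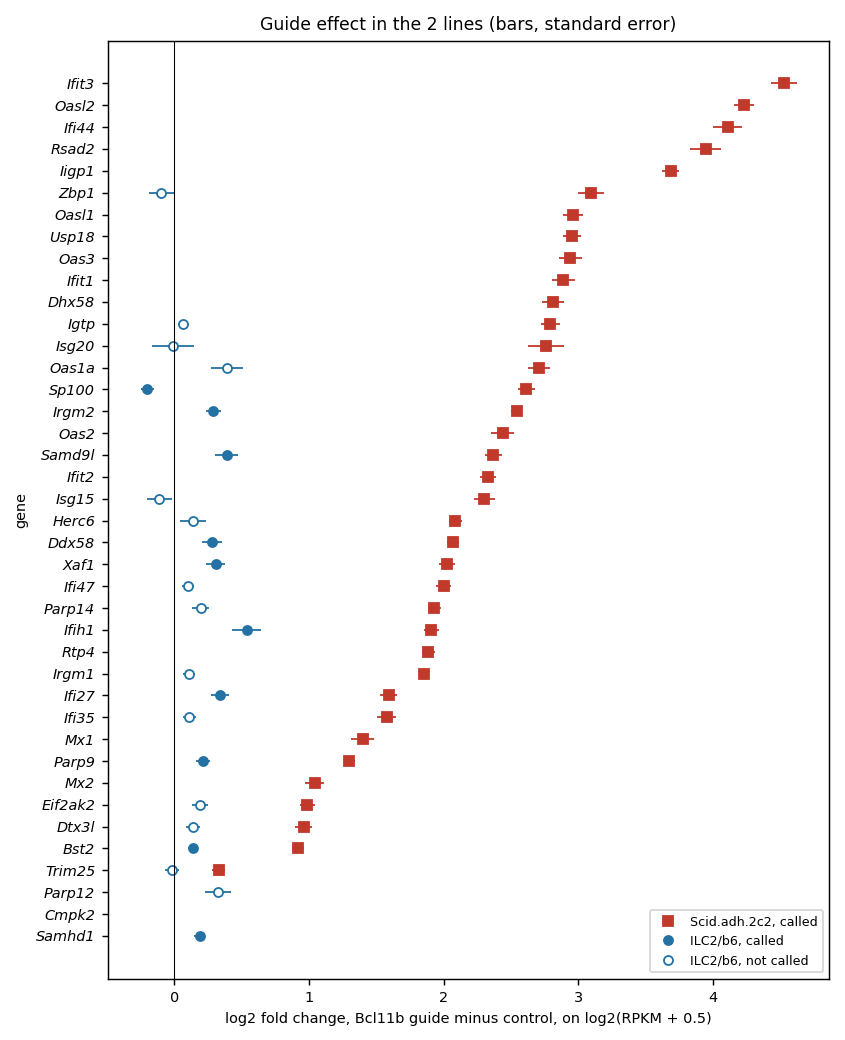
Log2 fold change, Bcl11b guide minus control guide, of each tested member on the log2(RPKM + 0.5) scale (horizontal axis), with genes ordered by the change in Scid.adh.2c2 (vertical axis). Squares are Scid.adh.2c2 and circles ILC2/b6; filled symbols were called, and bars show the standard error. The squares run from 0.33 to 4.53 and the circles from -0.20 to 0.54.

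Markers of other cells moved in the same libraries. Of the 9 macrophage and dendritic cell markers, the summed level was 1.61 to 1.92 RPKM with the control guide and 14.4 to 14.7 RPKM with the Bcl11b guide. Most of the control sum was Cd68 (1.42 and 1.23 against 1.76 and 1.58 RPKM, not called). With the Bcl11b guide most of the sum was Mpeg1 (0.422 and 0.339 against 11.8 and 11.7 RPKM). Itgax (0.034 and 0.007 against 0.791 and 0.685 RPKM) and Adgre1 (0 against 0.380 and 0.355 RPKM) were also higher in both guide libraries, but too low to test. Lyz2 was lower in both, at 0.044 RPKM or less. Cd14, Siglech and C1qa were at 0 in all 4 libraries, and Csf1r reached 0.019 RPKM at most. Of 8 NK cell markers, 5 were tested, of which Ncr1, Prf1, Tbx21 and Nkg7 rose and Gzma fell. The list summed to 203 to 215 RPKM and then 241 to 245 RPKM. Most of the control sum was Gzma, which went from 209 and 198 to 100.4 and 104.5 RPKM. Ncr1 went from 0.142 and 0.258 to 37.6 and 36.3 RPKM, and Nkg7 from 0.992 and 1.499 to 43.2 and 42.6 RPKM. Tbx21 went from 3.86 and 3.82 to 55.03 and 56.95 RPKM, and Prf1 from 0.089 and 0.014 to 2.725 and 2.498 RPKM. Of 9 tested pro-T markers, 6 fell and Cd3d and Cd3g rose, the sum going from 966 to 988 RPKM down to 670 to 675 RPKM. B cell markers summed to 0.225 to 0.349 RPKM in all libraries, with Pax5 and Ms4a1 at 0. Of 6 tested ILC2 markers, Il13, Rora, Klrg1 and Gata3 rose and Il7r and Il2ra fell, the sum going from 242 to 264 RPKM down to 153 to 155 RPKM. The 5 erythroid markers summed to 76.0 to 79.5 RPKM and then 66.2 to 68.4 RPKM, mostly Tfrc, while Hba-a1 rose from 0.289 and 0.520 to 3.93 and 4.22 RPKM. The 7 stromal markers summed to 5.53 to 5.97 RPKM and then 1.34 to 1.47 RPKM, and Pdgfrb, the only one tested, fell. The part of these changes in the rise of the interferon-stimulated genes was not tested.

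In ILC2/b6 many members were low, and the changes of the others were small. Of the 40, 16 were under 1 RPKM in all 4 libraries, and 9 of these were under 0.1 RPKM. They include all 3 IFIT genes, 4 of the 5 OAS genes and both Mx genes. Of the 24 members tested, 9 rose (37.5%) and 1 fell, so that 41.7% were called, where 14.5% of the 10526 tested genes were called (8.32% rose and 6.21% fell). The median log2 fold change was 0.16, against 0.02 over all tested genes, and none of the 24 reached 2-fold in either direction (0.869-fold to 1.54-fold). Of all tested genes of this line, 0.485% rose at least 2-fold and 0.0475% at least 4-fold. Both guide libraries were above both control libraries in 18 of 24 members, against 33.6% of all tested genes, and below them in 2, while the groups overlapped in 4. The number called depended strongly on the fit. It was 3 without the mean-variance trend (Ifih1, Irgm2 and Samd9l), 6 after median-centring, 6 after leaving out control library 1, 5 without Bcl11b guide library 1 and 2 without guide library 2 (Ifih1 and Sp100).

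Ifih1 rose most in ILC2/b6, from 2.18 and 2.78 RPKM to 3.64 and 3.99 RPKM (log2 fold change 0.54 ± 0.11 SE, limma adjusted p = 0.0181). Its call was the only one of the 10 that held with any 1 library left out. The other RNA sensor, Ddx58, went from 6.41 and 7.32 to 8.12 and 8.74 RPKM (0.28). Samd9l went from 2.64 and 3.10 to 3.92 and 3.90 RPKM (0.39), and Irgm2 from 7.69 and 7.95 to 9.33 and 9.99 RPKM (0.29). In each of these 4 genes the 2 groups did not overlap, with a rise of 1.23-fold to 1.54-fold.

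Of the others called, Ifi27 went from 19.8 and 19.3 to 23.0 and 26.7 RPKM (0.34), and Xaf1 from 6.12 and 6.78 to 7.73 and 8.47 RPKM (0.31). Parp9 went from 9.99 and 10.4 to 11.6 and 12.3 RPKM (0.21), Samhd1 from 18.3 in both control libraries to 21.0 and 20.8 RPKM (0.19), and Bst2 from 79.1 and 75.8 to 84.6 and 86.3 RPKM (0.14). Sp100 was the one member that fell, from 33.8 and 35.1 to 28.8 and 31.1 RPKM (-0.20 ± 0.05 SE, limma adjusted p = 0.0373). The 14 tested members not called were Oas1a, Eif2ak2, Zbp1, Isg15, Herc6, Trim25, Dtx3l, Parp12, Parp14, Ifi47, Irgm1, Igtp, Isg20 and Ifi35, with log2 fold changes from -0.11 (Isg15) to 0.39 (Oas1a). Among the members too low to test, Rsad2 had 5 and 10 reads with the control guide and 36 and 28 with the Bcl11b guide, a ratio of 4.20 (95% counting interval 2.36 to 7.93). Its level reached 0.246 RPKM at most. Oasl2 had 1 and 0 reads against 5 and 6, a ratio of 10.8 with a counting interval from 1.57 to 466.

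Markers moved in the ILC2/b6 libraries too. Of the 10 ILC2 markers, all tested, Il5, Il13 and Areg fell and Klrg1 and Icos rose, and the list summed to 9228 to 9396 RPKM with the control guide and 6840 to 6967 RPKM with the Bcl11b guide. Among the 7 stromal markers Dcn, the only one tested, rose from 5.31 and 5.99 to 12.8 and 10.9 RPKM, and the list went from 5.76 to 6.28 RPKM up to 11.23 to 12.97 RPKM. Of the 5 erythroid markers 2 were tested and Hba-a1 rose, from 16.9 and 15.2 to 27.2 and 26.9 RPKM, with list sums of 78.2 to 82.9 RPKM and then 98.8 to 101 RPKM. Of 2 tested NK cell markers Prf1 rose and Gzma fell (sum 810.3 to 811 RPKM, then 645 to 689 RPKM, mostly Gzma). The 9 macrophage and dendritic cell markers summed to 2.01 to 2.02 RPKM and then 1.48 to 1.62 RPKM. The 10 pro-T markers summed to 23.8 to 24.8 RPKM and then 20.9 to 22.0 RPKM, and the 6 B cell markers to 4.57 to 5.03 RPKM in all 4 libraries. Their part in the members' changes was not tested.

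Baseline levels in the lines can be set side by side. With the control guide, 34 members had a higher mean in Scid.adh.2c2 and 6 in ILC2/b6: Parp12, Cmpk2, Samhd1, Ifi35, Xaf1 and Sp100. These levels come from tables that the authors may have scaled separately, so they were not tested. Mx1 and Xaf1 also have different transcript models in the tables. Bst2 was the highest member with the control guide in either line. As a ratio, Samhd1 and Parp12 stood furthest the other way. Samhd1 was at 18.3 RPKM and Parp12 at 2.10 and 2.55 RPKM in ILC2/b6, with both near or at 0 in Scid.adh.2c2. In RPKM the largest excess in ILC2/b6 was at Sp100, with control means of 34.5 RPKM there and 7.96 RPKM in Scid.adh.2c2.

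The difference in response between the lines was tested directly as the interaction contrast over the 8 libraries, the log2 fold change in ILC2/b6 minus that in Scid.adh.2c2. Of 39 members tested, 38 had a smaller fold change in ILC2/b6 and the test called all 38, where 45.1% of 11609 genes were called and 27.1% in this direction. The median difference was -1.98 over the members and -0.03 over all genes. It was largest for Ifit3 (-4.57 ± 0.12 SE) and Oasl2 (-4.11), and smallest for Trim25 (-0.35 ± 0.06 SE, limma adjusted p = 0.00268). Parp12, at 0 in Scid.adh.2c2, was the exception (0.33, limma adjusted p = 0.0554). For 15 of the 16 members under 1 RPKM in ILC2/b6 (Cmpk2 was not tested) the contrast sets a rise in one line against a gene hardly transcribed in the other. Samhd1 was the low one in Scid.adh.2c2, under that line's filter at 0.405 RPKM or less, against 18.3 to 21.0 RPKM in ILC2/b6. With only genes at 1 RPKM or more in all 8 libraries, 21 members remained in the test, and all 21 were called in the same direction.

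The pathway that switches these genes on was read from a list of 62 other genes: interferon ligands, receptors, JAK and STAT relays, IRF factors, sensing adaptors and negative regulators. In Scid.adh.2c2, 26 of the 36 tested genes rose and 1 fell, with a median log2 fold change of 0.59. Thus 75.0% of them were called, against 57.8% of all tested genes of the line (35.1% rose and 22.7% fell). After median-centring 22 pathway genes rose and 5 fell. Of the relays, Stat2 rose from 9.68 and 9.54 to 35.0 and 36.1 RPKM (1.83 ± 0.05 SE). Jak2, Tyk2, Irf9 and Jak1 rose by 1.21, 1.07, 0.99 and 0.75. These relays and the members therefore rose in the same libraries, the relays by less than the members' median.

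Among the IRF factors, which carry the signal to interferon genes and their targets, Irf7 rose most, from 11.1 and 8.85 to 62.8 and 66.5 RPKM (2.64 ± 0.09 SE). Irf1, Irf2 and Irf4 rose by 1.79, 1.29 and 1.02, while Irf3 (0.11) and Irf5 (-0.08) were not called and Irf8 reached 0.017 RPKM at most. Of the sensing adaptors, 10 of 11 tested genes rose, led by Tmem173 (STING) at 1.81. Of 5 tested receptor genes, 2 rose, Ifnar2 by 0.60 and Ifngr1 by 0.31, and Ifnar1 (-0.01), Ifngr2 (-0.05) and Il10rb (0.07) were not called. Of 6 tested negative regulators, Irf2bp2, Ptpn6 and Pias1 rose by 0.50, 0.28 and 0.25, and 2 were not called. Socs3 fell from 12.4 and 13.7 to 3.43 and 3.94 RPKM (-1.69 ± 0.09 SE).

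Interferon transcripts themselves were few. Ifng, the type II interferon, rose from 0.437 and 0.335 to 5.47 and 4.68 RPKM (log2 fold change 2.65 ± 0.11 SE, limma adjusted p = 1.83e-06). The 15 alpha and beta genes listed had 1 and 0 reads in all in the control libraries of Scid.adh.2c2 and 36 and 50 reads in the guide libraries. Each of the 15 had at least 1 read with the Bcl11b guide. Ifnb1 had 14 and 12 of these reads, and was at least 4.13-fold higher than the level of 3 reads per control library. Ifna4 had 8 and 18, and was at least 4.15-fold higher. The alpha genes are near-identical copies, and the sources used here do not say how reads shared by copies were counted. Their reads may be spread over several copies, or counted at more than 1 copy, in which case the sum is too high. Ifna2, Ifna6 and Ifna15 each had 1 and 3 reads in the guide libraries. Ifnz, a listed ligand outside these 15, was already present with the control guide. It had 114 and 109 reads in the control libraries of Scid.adh.2c2 and 96 and 91 in the guide libraries. At 1.79 and 2.15 against 1.61 and 1.55 RPKM, Ifnz was lower with the Bcl11b guide but not called (-0.24). In ILC2/b6, 17 of 21 ligands were at 0 in all 4 libraries, and Ifng had 3 and 1 reads in the control and none in the guide libraries. There Ifnz had 23 and 19 reads with the control guide and 33 and 42 with the Bcl11b guide. This was a ratio of 1.76 (95% counting interval 1.19 to 2.63).

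In ILC2/b6, 36 pathway genes were tested, and Ifnar2 (0.25) and Socs1 (0.24) rose while Irf4 (-0.39) and Traf3 (-0.24) fell. These 4 were 11.1% of the pathway genes tested, below the 14.5% called over all tested genes of the line. None of the relay genes was called, with log2 fold changes from 0.01 (Tyk2) to 0.19 (Jak2), and of the other IRF factors none lay beyond 0.13 in either direction. Receptors and relays were present in this line: Ifnar1 stood at 7.76 to 9.17 RPKM and Jak1 at 64.1 to 73.5 RPKM. Irf7 was low, at 1.07 to 1.42 RPKM, where Scid.adh.2c2 held 8.85 RPKM or more.

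**Figure D3:**
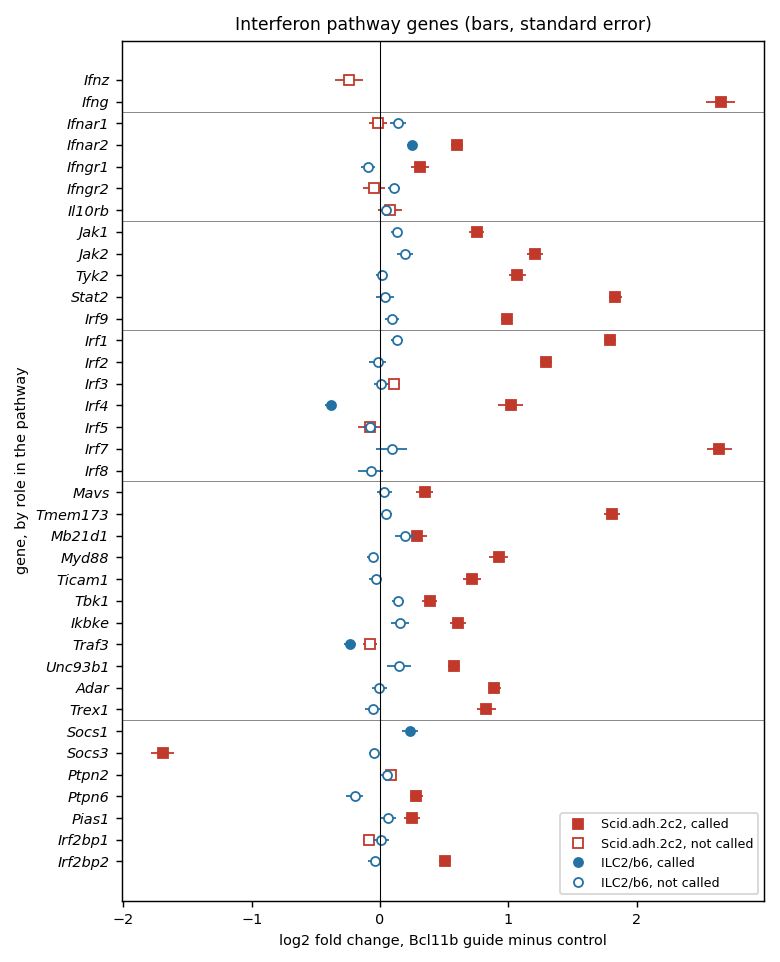
Log2 fold change, Bcl11b guide minus control guide (horizontal axis), of interferon pathway genes tested in at least 1 line, grouped by role from ligands at the top to negative regulators at the bottom. Squares are Scid.adh.2c2 and circles ILC2/b6, filled symbols were called, and bars show the standard error. In Scid.adh.2c2 Ifng (2.65) and Irf7 (2.64) rose most and Socs3 (-1.69) fell, while the ILC2/b6 values lie between -0.39 and 0.25.

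How the share of members with a Bcl11b interval compares depends on the genes it is set against. In Scid.adh.2c2, 22 of the 40 members had at least 1 interval named for them among the 17874 Bcl11b intervals of that list, which is 55.0% against 37.8% of all 24475 genes. Among genes tested for expression the share was 59.5% of members against 68.7% of all. The other factors covered 21 (GATA3), 12 (Runx1) and 22 (Runx3) members, with GATA3 at 54.1% of tested members against 58.6% of tested genes and Runx3 at 56.8% against 71.1%. Among tested genes Runx1 was the factor furthest from the background in this line, with an interval at 29.7% of members against 59.8% of all. Over all genes, tested or not, Runx1 was near the background, at 30.0% of members against 33.0%. On that footing GATA3 stood at 52.5% against 54.1% and Runx3 at 55.0% against 42.1%. In ILC2/b6, Bcl11b intervals were found at 21 members, 52.5% against 39.2% of all genes, and at 66.7% of tested members against 66.6% of tested genes. GATA3 had intervals at 24 members (75.0% of tested members against 62.3% of tested genes), Runx1 at 20 (62.5% against 66.8%) and Runx3 at 31 (91.7% against 84.2%). No test was made of these shares, since genes that are neighbours or copies do not count independently.

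By the gene names in the lists, Bcl11b had an interval at 15 members in both lines, at 7 in Scid.adh.2c2 alone (Eif2ak2, Dtx3l, Mx1, Ifi27, Bst2, Mx2 and Rtp4) and at 6 in ILC2/b6 alone (Dhx58, Ddx58, Parp12, Rsad2, Oasl2 and Samhd1). The other 12 had none named for them in either line: Ifi35, Cmpk2, Ifit1, Ifit2, Ifit3, Ifi44, Parp14, Oasl1, Oas1a, Oas2, Iigp1 and Isg15. Oas1a and Oas2 had no interval of any factor in either line. Among the 12 largest rises in Scid.adh.2c2, Ifit3, Oasl2, Ifi44, Rsad2, Iigp1, Oasl1, Ifit1 and Dhx58 had no Bcl11b interval named for them in that line, and Zbp1, Usp18, Oas3 and Igtp had one. These names miss some intervals: 1475 Bcl11b intervals of that list carry no gene name. Through the promoter ID beside them, 2 more members had a Bcl11b interval there. One was Oasl2, with a score of 25.2 at chr5:115342484-115342720, 4341 bases before the start and overlapping a GATA3 interval. The other was Ifit2, with 23.6 at chr19:34625343-34625579, 117 bases before the start. With these, 64.9% of tested members had a Bcl11b interval in Scid.adh.2c2 against 73.5% of tested genes, and in ILC2/b6 the promoter IDs added no member for Bcl11b.

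**Figure D4:**
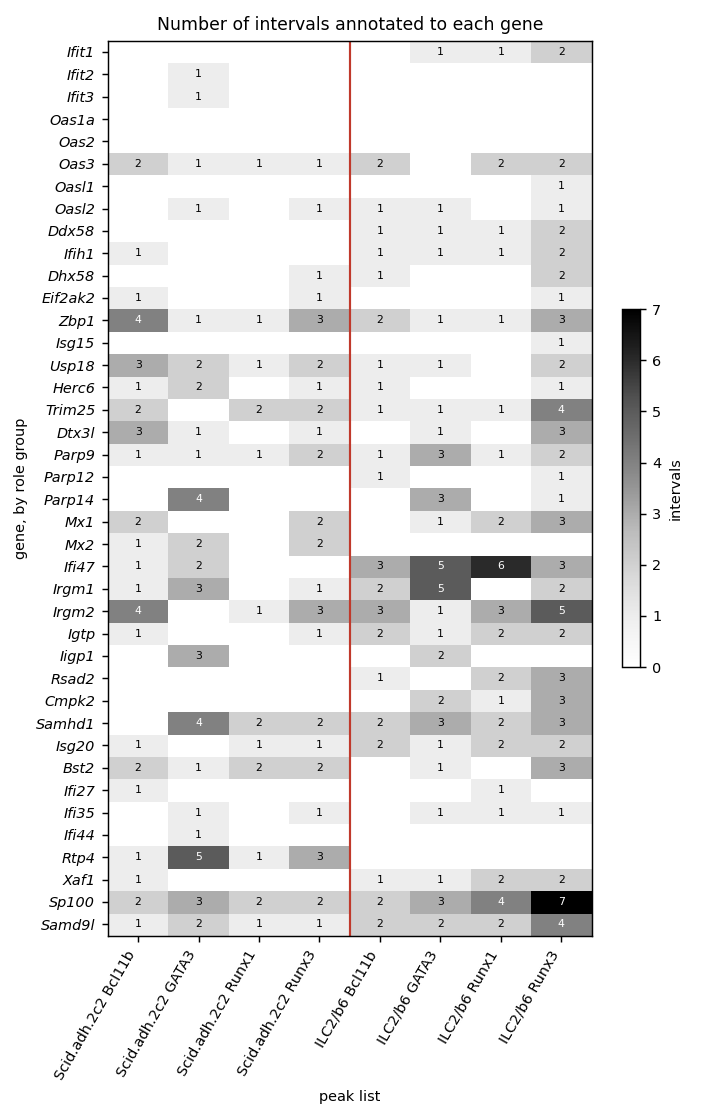
Number of intervals named for each member (vertical axis, by role group) in each of the 8 peak lists (horizontal axis), with Scid.adh.2c2 left and ILC2/b6 right of the line. Shading and digits give the number, and empty cells hold none. Sp100 has the most in a single list (7, Runx3 in ILC2/b6), and Oas1a and Oas2 have none.

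In Scid.adh.2c2 the median rise was lower in members with a Bcl11b interval than in those without, by an amount that depends on the filter. The 22 tested members with a named interval had a median log2 fold change of 1.96 (0.33 to 3.09), and the 15 without had 2.81 (1.58 to 4.53). The 15 include Ifit3, Oasl2, Ifi44 and Rsad2, which needed a guide library to pass the expression filter. With only members at 1 RPKM or more in all 4 libraries the medians were 1.96 (22 members) and 2.44 (11 members). With Oasl2 and Ifit2 counted among those with an interval they were 2.01 (24 members) and 2.81 (13 members). Over all tested genes the medians were 0.06 with and 0.04 without an interval. In ILC2/b6 the medians were 0.16 with (16 members) and 0.17 without (8 members). These are descriptions with no test, since the members were chosen as a list.

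**Figure D5:**
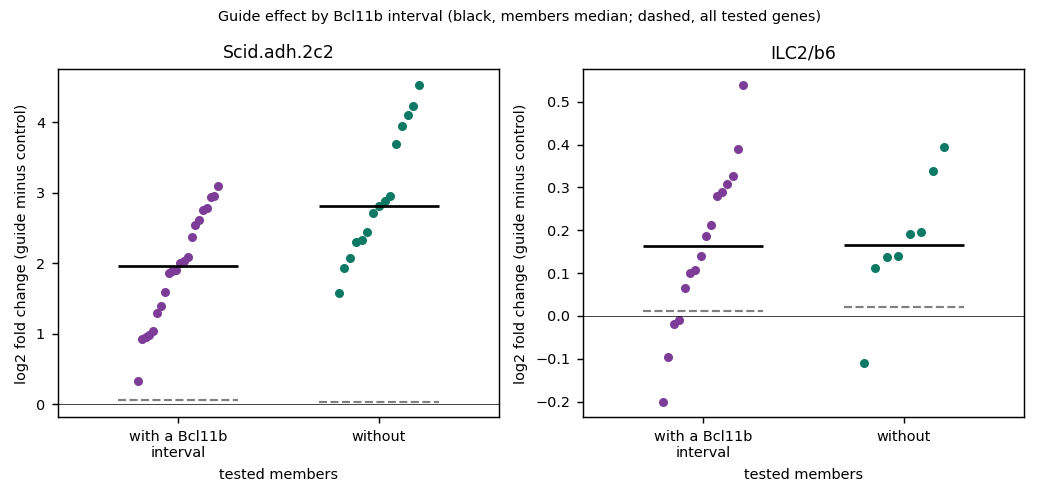
Log2 fold change, Bcl11b guide minus control guide (vertical axis), of the tested members with and without a Bcl11b interval named for them in the same line (horizontal axis), for Scid.adh.2c2 (left) and ILC2/b6 (right; the scales differ). Points are genes spread sideways by rank, black lines the medians of the members and dashed lines the medians of all tested genes in the same class. In Scid.adh.2c2 the medians are 1.96 with and 2.81 without an interval, both far above the dashed lines at 0.06 and 0.04.

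Where Bcl11b intervals were present, many lay at the start site: 18 of the 22 members in Scid.adh.2c2 (81.8%) had one within 1 kb of it, as did 70.4% of all genes with a Bcl11b interval. In ILC2/b6 it was 14 of 21 (66.7%), near the 64.2% of all genes. Coordinates are on mm9, and scores are the authors' peak scores, which rank intervals within a list only. The highest score at a member in Scid.adh.2c2 was at Bst2, 69.0 at chr8:74059752-74059988 in an intron. Irgm2 followed with 56.1 at chr11:58037912-58038148, intergenic and 9551 bases from the start. Usp18 had 50.0 at chr6:121195779-121196015 and Zbp1 48.3 at chr2:173044274-173044510, both promoters. Oas3 had 39.6 at chr5:121225667-121225903, in its first intron. All 5 overlapped a Runx1 and a Runx3 interval and none overlapped a GATA3 interval.

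In ILC2/b6 the highest score was at Sp100, the member that fell, 72.9 at chr1:87537412-87537666, with a second interval of 41.2 at chr1:87552171-87552425. Ifi47 had 70.1 at chr11:48885665-48885919 and Samhd1 65.1 at chr2:156960863-156961117, its promoter. Ifih1 had 45.5 at chr2:62473392-62473646, in an intron, and Irgm2 41.7 at chr11:58037900-58038154, which overlaps its Scid.adh.2c2 interval. Irgm2 also had intervals of 36.5 and, at the promoter, 28.7, and Samhd1 one of 30.2. Of the other members called in this line, Samd9l had 32.4 and 28.6, Xaf1 30.2 at its promoter, Ddx58 22.5 in its first intron and Parp9 19.1. Bst2 and Ifi27 rose there with no Bcl11b interval named for them.

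Overlap with the partner factors was read for each Bcl11b interval named for a member. In Scid.adh.2c2, 13 of the 37 Bcl11b intervals of members (35.1%) overlapped a Runx1 interval, against 61.2% of all 17874 Bcl11b intervals, while 70.3% overlapped Runx3 (all, 73.5%) and 10.8% GATA3 (all, 19.3%). In ILC2/b6, 26 of 33 (78.8%) overlapped Runx1 (all, 71.0%), 87.9% Runx3 (all, 85.0%) and 27.3% GATA3 (all, 35.0%). Overlap meant at least 1 shared base. The shares depended on score. At or above the list's median score in Scid.adh.2c2, 8 of 13 member intervals (61.5%) overlapped Runx1 (all, 77.4%). There 92.3% overlapped Runx3 (all, 84.1%) and 7.69% GATA3 (all, 20.6%). For the 15 such member intervals in ILC2/b6 it was 93.3% Runx1 (all, 80.5%), 86.7% Runx3 (all, 88.6%) and 33.3% GATA3 (all, 39.0%). None of the 37 intervals in Scid.adh.2c2 overlapped all 3 partners, where 12.8% of all Bcl11b intervals did, and 7 of 33 did in ILC2/b6 (all, 29.0%). Runx3 mRNA itself rose in Scid.adh.2c2, from 3.07 and 3.28 to 18.0 and 18.2 RPKM, and Runx1 did not pass the test (-0.05). Whether this bears on the members was not tested.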

How the data were processed

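RNA was measured in 8 libraries and factor binding in 16 ChIP libraries with 8 inputs, 32 samples in 16 groups of 2; single-end reads of either kind were 50 nt, per the labels' protocols. The authors deposited RPKM values in 2 tables, 1 per line (the line of a table is known from its name), and 8 peak lists with a score per interval, which per the file headers were made from both replicates of a factor. Tools named in the submitters' processing notes are Bowtie 1.1.1, HOMER, Trimmomatic, STAR 2.4.0, RSEM 1.2.25 and edgeR 3.6.8, and the builds mm9 and NCBIM37; which role each had, the sources used here do not give. Depth was recovered from the RPKM steps, where 100% of the low values tested came out whole within 0.1 read; intervals and floors cover counting error only.

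Changes were tested with limma 3.58.1 (R 4.3.3) on log2(RPKM + 0.5), using its mean-variance trend, and p was adjusted by Benjamini-Hochberg over all genes with at least 1 RPKM in 2 of a line's 4 libraries (2 of 8 for the difference between lines). With 2 libraries against 2, a permutation test cannot go below p = 0.333, so none was used. The labels give no batch. On simulated libraries the fit recovered 94.0% of 2-fold and 68.7% of 1.5-fold changes in Scid.adh.2c2 (7 of 180 calls false). In ILC2/b6 it recovered 91.0% and 64.2% (13 of 182 calls false). Only 67, 67 and 66 genes of each line were changed there, by 1.5-fold, 2-fold and 4-fold. In the real Scid.adh.2c2 libraries 57.8% of tested genes were called. The simulated spread was also given to genes at random, without regard to their level. These rates therefore need not hold for the real libraries. The members and gene lists were chosen with earlier results of these data known. All 40 members were named. Values per library are given for the 12 largest changes in Scid.adh.2c2, for every member called in ILC2/b6 and for the smallest change of each role group. Intervals are given for the 5 highest-scoring members per line. Alternatives were other pseudocounts (0.1 and 1), filters and scalings, no trend, a replicate block, a joint fit, each library left out, and stricter interval choices. Some genes of the pathway and marker lists count in the totals but are not reported here by name or drawn.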

Additional observations from a re-analysis of the deposited data

Results flagged for a closer look

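The guide effect differed between the lines for 38 members by the limma interaction test over all 11609 genes, which is what singled them out. Each value below is the log2 fold change in ILC2/b6 minus that in Scid.adh.2c2, and all 38 were below 0. In the IFIT family the difference was -4.57 for Ifit3, -2.81 for Ifit1 and -2.36 for Ifit2. For the OAS genes it was -4.11 (Oasl2), -2.93 (Oasl1), -2.90 (Oas3), -2.44 (Oas2) and -2.31 (Oas1a). The sensors ran from Zbp1 at -3.19 and Dhx58 at -2.89 over Ddx58 at -1.79 and Ifih1 at -1.37 to the kinase gene Eif2ak2 at -0.80. Within the ISG15 system, Usp18 (-2.80), Isg15 (-2.41) and Herc6 (-1.95) differed more than the ligase genes Dtx3l (-0.82) and Trim25 (-0.35). Parp14 stood at -1.73 and Parp9 at -1.09, Mx1 at -1.43 and Mx2 at -1.01. Of the IRG genes, Iigp1 differed by -3.76, Igtp by -2.73, Irgm2 by -2.26, Ifi47 by -1.90 and Irgm1 by -1.75. Rsad2 stood at -3.55, Isg20 at -2.77 and Samhd1, which was under the expression filter in Scid.adh.2c2, at -0.55. In the last group the difference was -4.09 for Ifi44, -2.81 for Sp100, -1.98 for Samd9l, -1.89 for Rtp4, -1.72 for Xaf1, -1.46 for Ifi35, -1.25 for Ifi27 and -0.78 for Bst2.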

How the results depend on the processing

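In Scid.adh.2c2 the 37 members called kept their direction under every alternative run. The count was 35 to 37 with 1 library left out, the members lost then being too low to test, and with no expression filter 38 of 40 were called, 36 of them among the 37; of the others Trim25 missed the threshold there (limma adjusted p = 0.056). The count of all genes called in that line fell to 3835 with no filter and ran from 3700 to 6803 with 1 library left out. Median-centring moved the median log2 fold change of all genes by -0.13 in Scid.adh.2c2, and the share of called genes that rose went from 60.7% to 38.5%, and to 38.4% with quantile normalization; it was 57.3%, 41.7% and 50.8% in ILC2/b6. Pathway genes called in Scid.adh.2c2 were 22 higher and 7 lower with quantile normalization.

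In ILC2/b6 the calls depended more on the fit. All genes called were 133 with no filter and 779 to 2199 with 1 library left out. Members called there were 1 with no filter (Ifit3, which had 1 read in either control library and 0 in the guide libraries), 6 median-centred, 6 with quantile normalization, 3 with no trend, and 2 to 11 with 1 library left out. Pathway genes called were 0 with no filter by limma (6 at an unadjusted p under 0.05), 7 with the replicate block, 2 without Bcl11b guide library 1 and 9 without control library 2. The cause was not tested. Of members not called, with 1 library left out, Zbp1 ran from -0.25 to 0.054 and turned sign without Bcl11b guide library 1, and Isg20 ran from -0.28 to 0.26 and turned without control library 2. Replicate numbers are shared by the groups, but with 2 pairs a line nothing shows that they pair samples: same-numbered libraries deviated together with r = 0.04 across 10221 genes in Scid.adh.2c2 and 0.11 across 10526 genes in ILC2/b6. With the replicate block, 5921 and 2258 genes and 37 and 13 members were called in the 2 lines, and 39 members differed between lines, Parp12 in the opposite direction to the others.

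Members differing between lines were 21 of 21 tested with at least 1 RPKM in all libraries. Restricting intervals to those at or above a list's median score left 10, 6 and 11 members with a Bcl11b, Runx1 and Runx3 interval in Scid.adh.2c2 and 9, 14, 9 and 17 with a Bcl11b, GATA3, Runx1 and Runx3 interval in ILC2/b6. Within 10 kb of the start, GATA3 was left at 13 members in Scid.adh.2c2. Bcl11b intervals of members at or above the median overlapped a partner in 100% in either line, against 73.0% and 97.0% of all member intervals. Member intervals do not count independently, since several can belong to 1 gene. Those at or above the median were only 13 and 15 intervals. Of all Bcl11b intervals at or above the median, 89.2% and 93.2% overlapped a partner. Without regard to score it was 80.1% and 90.2% of all Bcl11b intervals. Giving unnamed intervals a gene through their promoter ID, chosen after seeing the data, made 24 members with Bcl11b in Scid.adh.2c2 and 22 with Runx1 in ILC2/b6. Also chosen after seeing the data, keeping members at 1 RPKM or more in all 4 libraries moved the median of those without a Bcl11b interval in Scid.adh.2c2 from 2.81 to 2.44. Depth limits the members under 0.1 RPKM in ILC2/b6, which rest on a few reads each.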

Other observations

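Several members form neighbouring pairs on mm9 whose values in Scid.adh.2c2 can be set side by side. Rsad2 and Cmpk2 lie 12.8 kb apart and point away from each other; with the Bcl11b guide the first reached 24.1 and 25.7 RPKM and the second 0.954 and 1.05 RPKM, and in ILC2/b6 both stayed under 0.32 RPKM. Oas2 and Oas3 lie 3.25 kb apart and rose by 2.44 and 2.94 on the log2 scale. Igtp and Irgm2, 7.38 kb apart, rose by 2.79 and 2.54. Chromosome 11 holds 8 of the 40 members and chromosome 16 holds 6, so neighbouring members are not independent observations.

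Ifi27l2a, a relative of Ifi27 that is no member and whose span holds all of that gene, had 5.93 and 6.21 RPKM with the control guide in Scid.adh.2c2, against 19.0 and 18.4 RPKM in the Bcl11b guide libraries.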
